A study of Mus musculus with 20 samples.

Results

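The genes *Slc34a2*, *Tuba8*, *Cib3*, *Sema5b* and *Tmem28* were among those that differed most in liver between mice fed a high-fat diet (HFD) and mice fed chow. They were selected on the size of that difference, as genes whose part in the response to HFD is unclear. They are 5 of 55487 gene identifiers in the count table and 5 of its 21936 protein coding genes, and each was found by its symbol. In HFD-fed mice *Slc34a2*, *Tuba8* and *Cib3* were low and *Sema5b* and *Tmem28* were high. Because these differences were what the genes were chosen by, they are given as a description and carry no test. The genes were not chosen by differences among the HFD-fed mice, although members and tests were chosen with earlier results of these data known. Among the HFD-fed mice, *Slc34a2*, *Tuba8* and *Cib3* were lower in mice with a higher clock score. With mouse 31, whose group is in doubt, counted as Beef, *Tuba8* passed by Spearman's rho and not by Pearson's r. The score sets clock genes such as *Dbp* against clock genes such as *Arntl* that peak at another time of day. No member passed a test between the sources of dietary protein.

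Liver RNA came from 20 female C57BL/6J mice of 28 weeks, with 1 library per mouse. From an age of 8 weeks the mice ate either chow throughout (5 mice, the group Chow) or a regular HFD for 10 weeks, after which the HFD-fed mice ate HFDs in which part of the protein came from fishmeal of salmon by-products (5 mice, Fishmeal), salmon filet (6 mice, Salmon) or beef (4 mice, Beef). The labels name no genetic change in any group, and the 15 HFD-fed mice all shared the first HFD period. Mouse 31 is labelled Salmon, but the column heading of the count table names it Beef. The headings give groups of equal size, as the study describes them. Mouse 31 is counted here as labelled, although equal groups of 5 would place it in Beef. Values with it counted as Beef are given beside the results they bear on. The 20 libraries held 42526234 to 70266136 counted reads, and protein coding genes took 93.2% to 95.6% of them, apart from 84.3% in mouse 35. All 8 of 8 hepatocyte markers were present at a median of at least 1 transcript per 1e+06 (TPM, which allows for gene length and library).

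The genes belong to unrelated families. *Slc34a2* encodes the sodium-dependent phosphate cotransporter NaPi-IIb, best known from the brush border of the small intestine and from alveolar cells of the lung. *Tuba8* encodes a divergent alpha tubulin, a subunit of microtubules, and *Cib3* encodes a small calcium-binding protein of the family that binds the tails of alpha integrins and associates with TMC channels of sensory hair cells. *Sema5b* encodes a transmembrane semaphorin with thrombospondin repeats, of the protein family that steers growing axons through plexin receptors. *Tmem28*, also known as *Fam155b*, encodes a membrane protein related to the FAM155A subunit of the sodium leak channel NALCN.

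On GRCm38 with GENCODE M21, *Slc34a2* (ENSMUSG00000029188) spans chr5:53038081-53071664 on the plus strand, *Tuba8* (ENSMUSG00000030137) chr6:121210696-121226854 on the plus strand and *Cib3* (ENSMUSG00000074240) chr8:72204335-72212837 on the minus strand. *Sema5b* (ENSMUSG00000052133) spans chr16:35541145-35664732 and *Tmem28* (ENSMUSG00000071719) chrX:99821021-99848790, both on the plus strand. The genes thus lie on 5 chromosomes. An antisense gene, Gm15856, shares 368 exonic bases with *Tuba8* but held 10 counts over all 20 mice. *Tuba8* also matched *Tuba4a* at 85.7% identity over 491 bases, and the handling of reads that fit both genes is not given in the sources used here.

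The bases before the transcription start were read for all 5 members from RefSeq (GRCm38.p6). *Tuba8*, *Slc34a2* and *Cib3* were lower in mice with a higher clock score (below). Of these, the stretches of *Tuba8*, which held matches to the motifs searched, and of *Slc34a2*, which like *Cib3* held none, are shown. Capitals mark the matches. The printed bases lie outside GENCODE exons, at chr6:121210484-121210695 for *Tuba8* and chr5:53049103-53049351 for *Slc34a2*, both on the plus strand. The *Slc34a2* stretch lies inside the GENCODE span of the gene, before a RefSeq start within it, and the bases before the GENCODE gene start were not searched.
Tuba8: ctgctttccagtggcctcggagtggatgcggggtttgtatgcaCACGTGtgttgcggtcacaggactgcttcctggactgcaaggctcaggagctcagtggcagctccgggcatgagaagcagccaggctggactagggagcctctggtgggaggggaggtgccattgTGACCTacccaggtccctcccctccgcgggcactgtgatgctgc
Slc34a2: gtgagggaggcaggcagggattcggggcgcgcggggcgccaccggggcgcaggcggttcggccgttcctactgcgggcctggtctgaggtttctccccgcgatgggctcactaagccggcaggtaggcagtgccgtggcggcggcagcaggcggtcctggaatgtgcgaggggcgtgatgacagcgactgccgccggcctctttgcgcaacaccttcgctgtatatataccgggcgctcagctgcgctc
In *Tuba8* the letters CACGTG, the E-box that clock activators are known to bind, began 207 bases before the RefSeq start. TGACCT, the nuclear receptor half-site AGGTCA read on the other strand, began 82 bases before it. The last 38 bases before that start lie in a GENCODE exon and are not printed, so both matches stand closer to the end of the printed stretch. Among 32851 promoter windows of the same length, 6.02% held CACGTG and 14.0% held AGGTCA on either strand. Neither motif, nor the D-box TTANGTAA (in 2.06% of windows) or the sterol element TCACNCCAC (in 1.05%), was found in the windows of the other 4 members. A match is a description of the letters and says nothing of binding.

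*Slc34a2* held the most reads of the 5 genes in chow-fed mice. Chow mice 1, 2, 5, 7 and 10 had 1505, 1295, 980, 1182 and 1494 counts. Fishmeal mice 12, 13, 14, 16 and 20 had 147, 230, 146, 244 and 114 counts, Salmon mice 22, 23, 25, 26, 27 and 31 had 142, 93, 64, 149, 128 and 251, and Beef mice 32, 35, 39 and 40 had 148, 64, 98 and 92. Every HFD-fed mouse lay below every chow-fed mouse, and the gap between the highest HFD-fed and the lowest chow-fed mouse was wider than the spread within either. Scaled for library size with TMM factors (CPM, the counts in 1e+06 reads), the level was 22.5 ± 3.57 (SD, n = 5) in Chow and 2.52 ± 0.927 (SD, n = 15) over the HFD groups, 8.94-fold lower. By group, the level fell in the order Chow, Fishmeal (2.96 ± 0.777 CPM, n = 5), Salmon (2.45 ± 1.17, n = 6) and Beef (2.05 ± 0.548, n = 4). The ranges of the last 3 overlapped, though the Beef mean lay below the lowest Fishmeal mouse (2.42 CPM). With mouse 31 counted as Beef, Beef (2.55 ± 1.21 CPM, n = 5) came before Salmon (2.03 ± 0.628, n = 5). In median TPM, which allows for gene length, *Slc34a2* ranked higher than 77.7% of protein coding genes in Chow (11.7 TPM) and than 51.5% in HFD (1.256 TPM).

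*Tuba8* had far fewer reads. Chow mice 1, 2, 5, 7 and 10 held 85, 156, 127, 125 and 83 counts, while Fishmeal mice 12, 13, 14, 16 and 20 held 32, 22, 13, 14 and 7. Salmon mice 22, 23, 25, 26, 27 and 31 held 18, 11, 9, 10, 10 and 16 counts, and Beef mice 32, 35, 39 and 40 held 39, 13, 7 and 11. The groups on HFD did not reach the chow-fed mice, and Beef mouse 32 and Fishmeal mouse 12 were the highest among them. Mean levels were 2.03 ± 0.627 CPM (SD, n = 5) in Chow and 0.276 ± 0.154 CPM (SD, n = 15) in HFD, 7.36-fold lower. The order of the groups was Chow, Beef (0.343 ± 0.246 CPM), Fishmeal (0.290 ± 0.148) and Salmon (0.220 ± 0.0684), and the 3 HFD groups overlapped. The order was the same with mouse 31 counted as Beef (Beef 0.333 ± 0.215 CPM, Salmon 0.206 ± 0.0662, n = 5 each). Median TPM went from 2.42 in Chow to 0.248 in HFD.

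*Cib3* differed among the chow-fed mice themselves. Chow mouse 2 had 498 counts, whereas Chow mice 1, 5, 7 and 10 had 62, 30, 38 and 31. Counts were 13, 19, 3, 7 and 1 in Fishmeal mice 12, 13, 14, 16 and 20, then 17, 18, 2, 13, 7 and 23 in Salmon mice 22, 23, 25, 26, 27 and 31, and 13, 10, 11 and 7 in Beef mice 32, 35, 39 and 40. The HFD-fed mouse with most reads, mouse 31, remained under the chow-fed mouse with fewest, mouse 5, so the groups did not overlap, but mouse 2 stood 8.63-fold above the next chow-fed mouse. The level was 2.20 ± 3.34 CPM (SD, n = 5) in Chow and 0.196 ± 0.113 CPM (SD, n = 15) in HFD, 11.2-fold lower. Without mouse 2 the chow level was 0.704 ± 0.207 CPM (n = 4) and the difference 3.59-fold. Among the HFD groups the order was Salmon (0.238 ± 0.140 CPM), Beef (0.212 ± 0.0504) and Fishmeal (0.134 ± 0.102), with ranges that overlapped. Counting mouse 31 as Beef put Beef (0.253 ± 0.101 CPM, n = 5) before Salmon (0.202 ± 0.122, n = 5).

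*Sema5b* went the other way. Counts were 61, 37, 90, 34 and 144 in Chow mice 1, 2, 5, 7 and 10. They were 315, 743, 817, 353 and 597 in Fishmeal mice 12, 13, 14, 16 and 20, were 266, 323, 439, 568, 448 and 532 in Salmon mice 22, 23, 25, 26, 27 and 31, and were 498, 581, 370 and 571 in Beef mice 32, 35, 39 and 40. All HFD-fed mice were above all chow-fed mice, with Salmon mouse 22 lowest among the former and Chow mouse 10 highest among the latter. Levels were 1.269 ± 0.791 CPM (SD, n = 5) in Chow and 9.08 ± 2.90 CPM (SD, n = 15) in HFD, 7.15-fold higher. Beef (10.4 ± 1.99 CPM) came before Fishmeal (9.68 ± 3.89), Salmon (7.66 ± 2.19) and Chow, with overlap between all neighbours but Salmon and Chow. This order too was the same with mouse 31 counted as Beef (Beef 10.3 ± 1.76 CPM, Salmon 7.26 ± 2.20, n = 5 each). The median TPM was 0.326 in Chow and 3.24 in HFD.

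*Tmem28* was almost without reads in chow-fed mice. Chow mice 1, 2, 5, 7 and 10 held 5, 0, 1, 0 and 13 counts, 19 in all. Fishmeal mice 12, 13, 14, 16 and 20 held 106, 64, 198, 62 and 80 counts, Salmon mice 22, 23, 25, 26, 27 and 31 held 52, 111, 39, 89, 30 and 46, and Beef mice 32, 35, 39 and 40 held 109, 70, 57 and 151. The 15 HFD-fed mice all had more reads than Chow mouse 10, and they differed among themselves by up to 6.75-fold in CPM. For the 2 chow-fed mice at 0, a limit of 3 counts allows up to 0.0492 CPM in mouse 2 and 0.0637 CPM in mouse 7, by counting error only. The mean level was 0.0642 ± 0.0964 CPM (SD, n = 5) in Chow and 1.55 ± 0.804 CPM (SD, n = 15) in HFD, 24.1-fold higher, a ratio that rests on the 19 chow counts. Beef (1.96 ± 0.755 CPM), Fishmeal (1.76 ± 0.947) and Salmon (1.09 ± 0.566) followed each other with overlap. Counting mouse 31 as Beef put Fishmeal before Beef (1.74 ± 0.827 CPM, n = 5) and Salmon (1.144 ± 0.616, n = 5). Even in HFD the median of 0.864 TPM was higher than that of only 49.2% of protein coding genes.

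**Figure D1:**
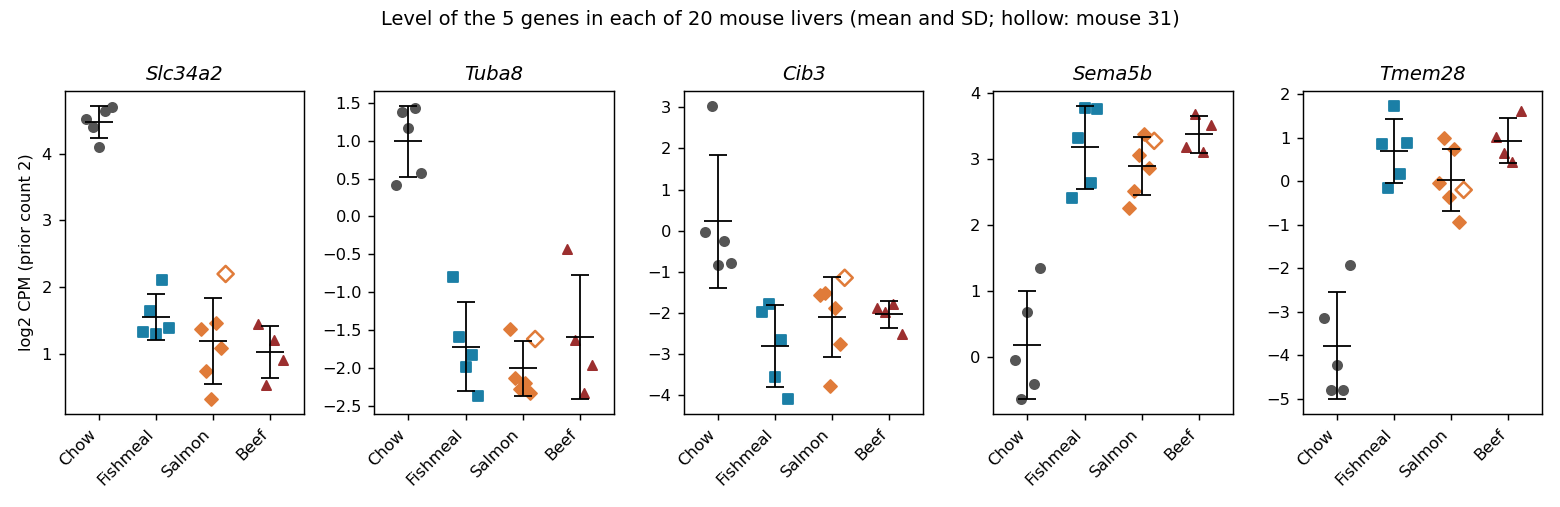
Each point is the log2 CPM (prior count 2) of one gene in one mouse, in Chow (5 mice), Fishmeal (5), Salmon (6, with mouse 31 hollow) and Beef (4), with the group mean and SD as bars. For all 5 genes the chow-fed mice stand apart from the 15 HFD-fed mice, and Chow mouse 2 stands alone at the top for *Cib3*.

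CPM ranges of chow-fed and HFD-fed mice did not overlap for 5 of 5 members, against 1.73% of the 13702 protein coding genes tested, which follows from how the members were chosen. On the log2 scale of the edgeR fit, HFD minus chow was -3.16 ± 0.194 (SE) for *Slc34a2*, -2.86 ± 0.261 for *Tuba8*, -3.47 ± 0.499 for *Cib3*, 2.83 ± 0.322 for *Sema5b* and 4.51 ± 0.613 for *Tmem28*. By size of this difference the members stood at ranks 12, 16, 9, 17 and 3 of the 13702 genes. A single chow-fed mouse moved 2 of these values. Without Chow mouse 2 the *Cib3* difference was -1.83, and without Chow mouse 10 that of *Tmem28* was 5.80.

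Each HFD group gave the same directions against the chow-fed mice, which all 3 comparisons share. For *Slc34a2* the log2 fold change was -2.93 ± 0.180 (SE) in Fishmeal, -3.19 ± 0.266 in Salmon and -3.46 ± 0.207 in Beef. With mouse 31 counted as Beef the last values became -3.46 in Salmon and -3.14 in Beef, so the order of these groups for *Slc34a2* depends on where that mouse is placed. For *Tuba8* the values were -2.79, -3.19 and -2.54 in Fishmeal, Salmon and Beef, and for *Cib3* they were -3.97, -3.20 and -3.38, the last 2 of which became -3.43 and -3.11 with mouse 31 counted as Beef. *Sema5b* was higher by 2.92, 2.60 and 3.03 on the same scale, and *Tmem28* by 4.70, 4.02 and 4.85, where the value of Beef became 4.67 with mouse 31. The order of Salmon and Beef for *Cib3*, and of Fishmeal and Beef for *Tmem28*, thus depends on that mouse as well.

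**Figure D2:**
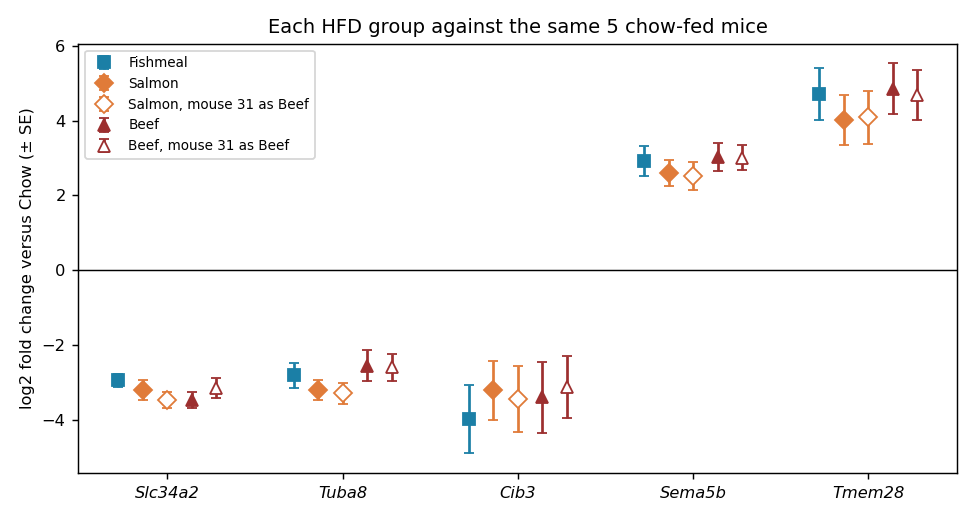
Points are log2 fold changes of each HFD group against the same 5 chow-fed mice from edgeR, with bars of 1 SE. Filled symbols use the labelled groups and open symbols count mouse 31 as Beef. Every gene keeps its direction in all 3 HFD groups, while mouse 31 changes the order of Salmon and Beef for *Slc34a2* and *Cib3* and that of Fishmeal and Beef for *Tmem28*.

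Whether the source of protein in the HFD made a difference to these genes was tested directly. The members were chosen by differences between HFD and chow, not between HFD groups, but with earlier results of these data known. None of the 5 was called in Fishmeal versus Salmon, where 0.163% of 13469 protein coding genes were called at an adjusted p under 0.05 by edgeR (quasi-likelihood test, two-sided). The same held for Fishmeal versus Beef (0.00744% of 13437 genes), for Salmon versus Beef (0% of 13439 genes) and for a test across the 3 groups (0.125% of 13651 genes). In Salmon versus Beef, 470 genes had an unadjusted p under 0.05 with edgeR, and DESeq2 called 1 gene, which was no member. Over the 15 values of 5 members in 3 pairs, differences ranged from 0.11 to 0.84 in size on the log2 scale, and 6 of them were under their own SE. The largest was that of *Tmem28* in Salmon versus Beef, -0.84 ± 0.361 (SE), with an edgeR adjusted p of 0.9995. *Slc34a2* was 0.53 ± 0.240 higher in Fishmeal than in Beef (edgeR adjusted p = 1). These 2 were the ones with an unadjusted p under 0.05. With mouse 31 counted as Beef the 2 were instead *Slc34a2* in Fishmeal versus Salmon (log2 difference 0.52 ± 0.239) and *Sema5b* in Salmon versus Beef (-0.49 ± 0.196), and again no member was called (lowest edgeR adjusted p = 0.9199). Groups of 4 to 6 mice leave these intervals wide, so that alike levels are not shown either.

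The HFD-fed mice nevertheless differed among themselves, by 3.77-fold for *Slc34a2*, 2.84-fold for *Sema5b*, 4.48-fold for *Tuba8* and 18.5-fold for *Cib3* between the lowest and highest CPM. One property that varied between the mice was the level of the genes of the circadian clock. In mouse liver the activators CLOCK and BMAL1 (the product of *Arntl*) drive genes such as *Dbp*, whose transcripts peak when those of *Arntl* are low. A clock score was taken for each mouse as the mean log2 CPM, relative to all mice, of *Dbp*, *Tef*, *Hlf*, *Nr1d1*, *Nr1d2*, *Per2*, *Per3* and *Ciart* minus that of *Arntl*, *Npas2*, *Clock*, *Cry1* and *Nfil3*. Chow-fed mice scored from -2.87 to -0.961 and HFD-fed mice from -1.98 to 3.46. *Dbp* ranged from 0.748 to 2.26 CPM in Chow and from 1.159 to 114 CPM in HFD (log2 fold change 4.70 ± 0.999, edgeR adjusted p = 0.00423, with 14 of 15 HFD-fed mice over the mean of Chow). *Arntl* ranged from 29.7 to 41.5 CPM in Chow and from 4.70 to 35.9 CPM in HFD, which did not pass the test (log2 fold change -1.05 ± 0.360, edgeR adjusted p = 0.0654). Diet and clock score therefore differed together in these mice. The hour at which each mouse was killed is not given in the sources used here. The score thus cannot separate the state of the clock from the time of collection.

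Within the HFD groups, with the group means removed, 3 of the 5 members fell as the clock score rose, and these were the 3 that were low in HFD. For *Slc34a2* Pearson's r was -0.78 over 15 mice (permutation p = 0.00193, 0.00483 after Benjamini-Hochberg adjustment over the 5 members) and Spearman's rho was -0.75 (adjusted permutation p = 0.0115). Fishmeal mouse 16 and Salmon mouse 31, with the most *Slc34a2* reads on HFD, had the lowest scores of their groups at -0.726 and -1.98. For *Cib3* r was -0.82 (permutation p = 0.00164, adjusted 0.00483) and rho was -0.68 (adjusted permutation p = 0.0229). Without mouse 14, 20 or 25, which had at most 3 *Cib3* reads, rho no longer passed (adjusted permutation p = 0.0515, 0.0696 and 0.113), whereas r did. Beef mouse 40, with the highest score of 3.46, had 7 *Cib3* reads. For *Tuba8* r was -0.69 (permutation p = 0.00439, adjusted 0.00732) and rho was -0.77 (adjusted permutation p = 0.0091). Without the 2 mice farthest from the median score, r was -0.72 for *Slc34a2*, -0.65 for *Cib3* and -0.68 for *Tuba8*. An r this low or lower was found for 0.825%, 0.431% and 1.87% of the 13702 protein coding genes for *Slc34a2*, *Cib3* and *Tuba8*, respectively. With mouse 31 counted as Beef, *Tuba8* no longer passed by Pearson's r (-0.56, adjusted permutation p = 0.0821) but did by Spearman's rho (-0.72, adjusted permutation p = 0.0148). In that grouping *Slc34a2* (r = -0.83) and *Cib3* (r = -0.79) still passed, each with an adjusted permutation p of 0.002375.

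The members that were high in HFD had no relation to the score that passed the test. For *Sema5b* r was 0.41 (adjusted permutation p = 0.228) and rho was 0.37, and an r at least this high was found for 15.1% of genes. For *Tmem28* r was 0.32 (adjusted permutation p = 0.300) and rho was 0.34, with 22.8% of genes at least this high. With mouse 31 counted as Beef, *Sema5b* passed by Spearman's rho (0.59, adjusted permutation p = 0.0405) and not by Pearson's r (0.50, adjusted permutation p = 0.0821).

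**Figure D3:**
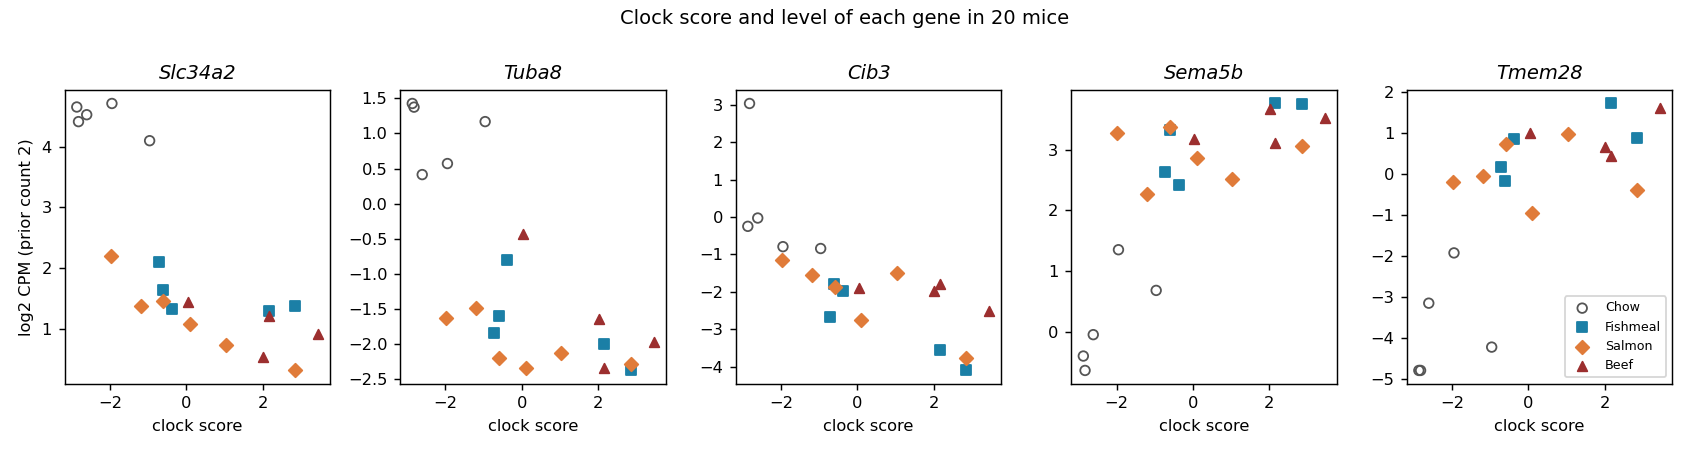
Each point is one mouse, with its clock score on the x axis and the log2 CPM (prior count 2) of the gene on the y axis. Chow-fed mice are hollow circles and the HFD groups are filled. Among the filled points *Slc34a2*, *Tuba8* and *Cib3* fall from left to right.

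The scores of 2 HFD-fed mice, Salmon mice 22 (-1.19) and 31 (-1.98), lay inside the range of the chow-fed mice. Their *Slc34a2* levels were 2.54 and 4.55 CPM, against at least 17.1 CPM in Chow. *Tuba8* was at 0.322 and 0.290 CPM in them, against at least 1.30 CPM in Chow, and *Cib3* at 0.304 and 0.417 CPM, against at least 0.522 CPM. *Sema5b* was at 4.76 and 9.63 CPM, against at most 2.52 CPM in Chow, and *Tmem28* at 0.931 and 0.833 CPM, against at most 0.227 CPM. That these 2 mice lay outside the chow-fed range follows from the choice of genes whose ranges did not overlap, and nothing is read from it. With the clock score as a covariate, the HFD minus chow differences were -2.57 for *Slc34a2*, -2.37 for *Tuba8*, -2.09 for *Cib3*, 2.36 for *Sema5b* and 3.78 for *Tmem28* on the log2 scale, all smaller in size than without it. How much of either the diet or the clock score enters these values cannot be told apart where both moved together.

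The members did not clearly vary with each other. Of 10 pairs tested within the HFD groups on log2 CPM, none passed after adjustment over the pairs. The pair with the lowest p, *Tuba8* and *Cib3*, had r of 0.54 (permutation p = 0.0146, adjusted 0.146) and rho of 0.58 (adjusted permutation p = 0.175) over 15 mice. On log2(TPM + 1) this pair passed by rho (0.61, adjusted permutation p = 0.0447) and not by r (0.45, adjusted permutation p = 0.265), and without Beef mouse 39 it passed by both (r = 0.65, adjusted permutation p = 0.0471). *Slc34a2* and *Cib3* had r of 0.56 (adjusted permutation p = 0.295), which was 0.19 without the 2 farthest mice. *Sema5b* and *Tmem28*, both high in HFD, had r of 0.20 (adjusted permutation p = 0.825).

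As a description, the protein coding genes of at least 1 CPM whose level followed each member most closely over the 15 HFD-fed mice, group means removed, were listed. For *Slc34a2* they were *Fem1c* (r = 0.94), which encodes a substrate receptor of a ubiquitin ligase, *Insig2* (0.93), an anchor of the sterol sensor in the endoplasmic reticulum, and *Lgalsl* (0.92), a galectin-like protein. For *Tuba8* they were *Paip2b* (0.88), a repressor of translation, *Fundc1* (0.86), a mitophagy receptor, and *Srgap3* (0.84), a regulator of small GTPases. *Cib3* was followed by *Tnfaip2* (0.90), *2810459M11Rik* (0.90) and the checkpoint gene *Rad9a* (0.88). Nearest to *Sema5b* were *Pgm2l1* (0.89), *Pnldc1* (0.88) and *Prdm15* (0.87). *Tmem28* was followed by the sulfotransferase gene *Sult2a7* (0.83), *Dmrta1* (0.82) and *Drosha* (0.76), the nuclease of microRNA maturation. Each r was picked as one of the highest among 11564 or 11565 genes over the same libraries.

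Relatives and partners of each gene, termed relatives here, were examined to see whether they moved with it. Of 103 relatives, 80 had enough reads to test and 5 were called in HFD versus chow by edgeR, against a background of 10.3% of all 13702 protein coding genes. Of these, 4 were higher (background 4.74%) and 1 was lower (background 5.59%). The median log2 fold change of the 80 relatives was -0.01, and that of all protein coding genes tested was 0.01, whereas relatives ranged from -0.60 to 0.70. With the clock score as a covariate, none of the 5 was called by edgeR. Calls fell widely with that covariate, from 1415 to 230 of the 13702 protein coding genes.

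Phosphate genes did not follow *Slc34a2*. Its paralogs *Slc34a1* and *Slc34a3* had at most 4 and 0 counts in a mouse, and the other sodium-phosphate cotransporters stayed near their chow levels, *Slc20a1* with a log2 fold change of -0.13 ± 0.170 (edgeR adjusted p = 0.691) and *Slc20a2* with 0.17 ± 0.0723 (adjusted p = 0.150). In chow-fed mice the median of *Slc34a2* (11.7 TPM) was close to those of *Slc20a1* (14.9 TPM) and *Slc20a2* (18.5 TPM), while in HFD-fed mice it was 1.256 TPM beside 12.54 and 18.95 TPM. Called were 2 of 18 tested genes of 26 listed, both higher, against 10.3% of all protein coding genes tested in either direction and 4.74% higher. So small a count is not read as a result about the list. *Slc37a4*, the transporter of glucose-6-phosphate into the endoplasmic reticulum, went from 54.6 ± 4.81 CPM in Chow to 80.5 ± 23.0 CPM in HFD (log2 fold change 0.56 ± 0.174, edgeR adjusted p = 0.0428, above the chow mean in 13 of 15 mice). *Klb*, the co-receptor of fibroblast growth factors 15 and 21, went from 40.2 ± 7.27 to 50.5 ± 6.46 CPM (0.33 ± 0.102, adjusted p = 0.0415, in 15 of 15 mice). With each of the 20 mice left out in turn, *Slc37a4* was called in 10 of 20 fits and *Klb* in 13.

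None of 15 tested tubulins of 19 listed was called, and 1 had an unadjusted p under 0.05 with edgeR, while DESeq2 called 1. Their log2 fold changes ranged from -0.60 (*Tubb2a*, edgeR adjusted p = 0.253) to 0.54 (*Tubb6*, adjusted p = 0.0842). *Tuba4a*, the alpha tubulin most like *Tuba8* in sequence, had 134 TPM in Chow and 112 TPM in HFD as medians (log2 fold change -0.05 ± 0.171, adjusted p = 0.889), beside 2.42 and 0.248 TPM for *Tuba8*. The alpha tubulins *Tuba1b* and *Tuba1c* also did not pass (-0.15 and 0.19). By TPM *Tuba8* was a minor tubulin of these livers on either diet.

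Of the semaphorins, plexins and neuropilins, 27 of 30 listed were tested and none was called by edgeR, 6 having an unadjusted p under 0.05. *Sema5a*, the closest relative of *Sema5b*, had 1.312 CPM in Chow and a log2 fold change of 0.24 ± 0.252 (edgeR adjusted p = 0.612). The highest value was that of *Sema4b* (0.50 ± 0.183, adjusted p = 0.0898), and the lowest that of *Plxnb3* (-0.58 ± 0.330, adjusted p = 0.293). *Sema4g*, the most abundant semaphorin of the list by TPM, had medians of 126 TPM in Chow and 131.5 TPM in HFD. *Plxna3*, a plexin named as receptor for class 5 semaphorins together with *Plxna1*, had -0.21 (adjusted p = 0.463) and *Plxna1* had 0.29 (adjusted p = 0.160).

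For *Cib3* the list of CIB proteins, TMC channels and alpha integrins held 19 tested genes of 24, of which 3 were called. The share called of all protein coding genes tested was 10.3%, and the 3 are not read as a result about the list. *Itga7*, a laminin receptor, rose from 8.00 ± 1.59 CPM in Chow to 13.0 ± 2.63 CPM in HFD (log2 fold change 0.70 ± 0.151, edgeR adjusted p = 0.00474, above the chow mean in 15 of 15 mice) and was called in 20 of 20 fits with a mouse left out. *Tmie*, known as a partner of the TMC channels in hair cells, rose from 36.3 ± 6.96 to 50.0 ± 6.86 CPM (0.46 ± 0.115, adjusted p = 0.0124, in 15 of 15 mice), called in 19 of 20 such fits and lost without Chow mouse 1 (adjusted p = 0.0523). *Itga5*, a fibronectin receptor, fell from 37.8 ± 4.02 to 27.3 ± 6.34 CPM (-0.47 ± 0.144, adjusted p = 0.0419, below in 15 of 15 mice), called in 9 of 20 fits. With the clock score as a covariate its log2 fold change was 0.000367. The paralogs *Cib1* (0.07 ± 0.127, adjusted p = 0.780) and *Cib2* (-0.31 ± 0.172, adjusted p = 0.280) did not pass, *Cib4* had at most 1 count in a mouse, and the hair cell channels *Tmc1* and *Tmc2* had at most 1 and 2. The list around *Tmem28* could hardly be tested, as *Nalcn*, *Unc80* and *Fam155a* had at most 13, 2 and 1 counts in a mouse, and *Unc79* did not pass (-0.57 ± 0.443, adjusted p = 0.467).

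**Figure D4:**
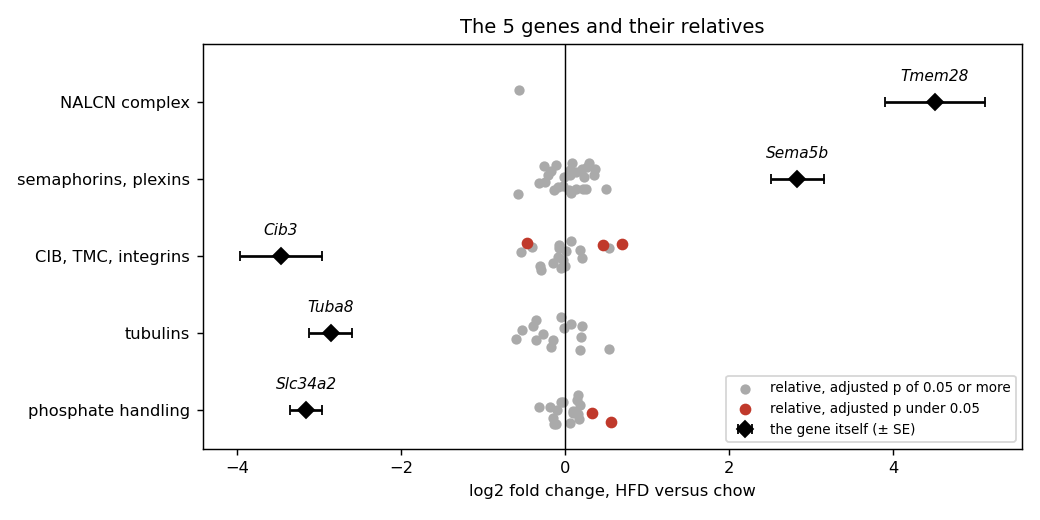
The x axis is the log2 fold change of HFD versus chow from edgeR. Black diamonds are the 5 genes with 1 SE, and dots are the tested relatives of each, red where the adjusted p was under 0.05. The relatives lie between -0.60 and 0.70. The 5 genes were chosen for large differences, so their distance from the relatives follows from that choice.

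Genes beside the members on the chromosome were examined in the same way. Of 34 protein coding genes within 250000 bases of a member, 28 were tested and 2 were called, both lower, against a background of 5.59% for that direction. *Slc6a13*, a transporter of GABA and taurine 73373 bases from *Tuba8*, fell from 371 ± 22.6 to 308 ± 35.0 CPM (log2 fold change -0.27 ± 0.0829, edgeR adjusted p = 0.04, called in 9 of 20 fits with a mouse left out). *Tpm4*, a tropomyosin gene 51193 bases from *Cib3*, fell from 22.3 ± 4.66 to 17.4 ± 2.67 CPM (-0.36 ± 0.116, adjusted p = 0.0487, called in 7 of 20 fits). *Sel1l3*, the nearest neighbour of *Slc34a2*, had -0.41 ± 0.133 (adjusted p = 0.0507). *Eda*, the 1 tested neighbour of *Tmem28*, had 0.26 ± 0.137 (adjusted p = 0.257), and none of 6 neighbours of *Sema5b* was called. Neither *Slc6a13* nor *Tpm4* was called with the clock score as a covariate, where 230 of 13702 protein coding genes were called in all. All of these differences were small beside those of the members, which follows from the choice of members by size of difference.

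Other cell types of the liver could carry some of these transcripts, and in bulk tissue fewer cells of a type and less RNA per cell cannot be told apart. B cell markers were called lower in HFD for 5 of 5 genes, against a background of 5.59% of the 13702 protein coding genes tested. They summed to 6.45 to 16.4 TPM in Chow and 2.59 to 7.21 TPM in HFD. Of 6 T cell markers 3 were called lower, but the 6 ranged from -1.06 to 0.325 in log2 fold change. None of the 6 had a median of 1 TPM, and they summed to 2.12 to 3.65 TPM in Chow and 1.01 to 2.66 TPM in HFD. Both sums overlapped between the diets. Of 7 cholangiocyte markers 1, *Sox9*, was lower, while the list summed to 68.4 to 137 TPM in Chow and 53.3 to 153 TPM in HFD. Kupffer cell, stellate cell and mesothelium markers held no called gene, and of 6 sinusoidal endothelial markers *Clec4g* was lower (sums of 111 to 139 TPM and 75.3 to 124 TPM). Adipocyte markers summed to 0.275 to 1.49 TPM in Chow and 0.535 to 2.12 TPM in HFD, with *Lep* at 0 in all mice, and the 1 of 5 that was tested was not called by edgeR (log2 fold change 0.73, unadjusted p under 0.05). Exocrine pancreas markers summed to 10.1 to 12.1 TPM in Chow and 12.3 to 27.0 TPM in HFD, which did not overlap. Only 1 of the 6 markers had a median of at least 1 TPM, so the sum says little of the list. Of these *Cela1*, the 1 gene tested, was higher, and *Prss1* and *Amy2a5* were at 0 in all mice. Of the skeletal muscle markers, a tissue known for *Tuba8*, *Myh4* and *Ckm* were at 0 in all mice with a sum of at most 0.196 TPM. The part of the lymphocyte, endothelial, bile duct, adipocyte and pancreas markers in the levels of the 5 genes was not tested.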

How the data were processed

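Per the labels and the methods, the authors prepared strand-specific mRNA libraries, trimmed reads with BBDuk, mapped them with HISAT2 (1.2.1 in the submitters' processing notes) and deposited unnormalised read counts per Ensembl gene from featureCounts 1.4.6-p1. The authors also deposited TPM, in which counts are divided by gene length and brought to 1 total per library. Settings for strand and for reads fitting several genes are not given in the sources used here. The notes name GRCh38 for a mouse genome. GRCm38 was used for positions, since 55141 of 55487 identifiers are in GENCODE M21.

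Counts were tested with edgeR 4.0 in R 4.3 (TMM, filterByExpr at a minimum count of 10, two-sided quasi-likelihood test, Benjamini-Hochberg adjustment over all genes tested), with calls among protein coding genes at an adjusted p under 0.05. Log2 CPM used a prior count of 2. Correlations used group-centred values and 100000 permutations within groups. Sequence likeness came from blastn 2.17 (at least 85% identity over 100 bases). The edgeR steps were tested on simulated counts. The 5 members, the lists and the tests were chosen with earlier results of these data known. Named are the members, called relatives (at most 6 a list) and neighbours, and the 3 genes most like each member. Other relatives and neighbours named beside them, and the mice singled out, were chosen after their values were seen. Alternatives were DESeq2 1.42, other size factors, filters on low counts, limma 3.58 on log2(TPM + 1) and log2(TPM + 0.1) for genes of at least 0.5 mean TPM, a fit on all 4 groups, the clock score as covariate, mouse 31 as Beef and each mouse left out. Mouse 31 as Beef in comparisons with chow was added after seeing the data. Mouse numbers do not repeat between groups, so no paired analysis was made.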

Additional observations from a re-analysis of the deposited data

Results flagged for a closer look

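*Cib3* in Chow mouse 2 stood at 8.16 CPM, whereas the other 4 chow-fed mice lay between 0.522 and 0.946 CPM. The distance to the nearest mouse, divided by the range of all 5, exceeded Dixon's 95% limit of 0.71 for 5 samples. It was the 1 such case among 20 groups of values (5 genes in 4 groups), of which chance alone is set to give about 5%. By the same limit mouse 2 stood apart for none of the other 4 genes. Among 12375 protein coding genes with a chow mean of at least 0.5 CPM, 3 were at least 5-fold higher in mouse 2 than in any other chow-fed mouse, and for the other chow-fed mice this number was 1 or 2. Besides *Cib3* these were *Igj*, the joining chain of antibodies made by plasma cells (35.3 CPM against at most 3.86), and *Gpnmb*, a glycoprotein of macrophages (1.84 CPM against at most 0.245), which were named after their values were seen. B cell markers summed to 14.99 TPM in mouse 2 and 16.44 TPM in mouse 7, where *Cib3* was at 0.806 CPM. Mouse 2 had the highest chow sums of cholangiocyte (136.7 TPM), stellate cell (161.3), sinusoidal endothelial (139.5) and mesothelium (7.23) markers. Its sums of the other marker lists were not the highest in Chow. Its Kupffer cell markers summed to 271.6 TPM, within a chow range of 182 to 526 TPM. Whether plasma cells, macrophages or any other cell type have a part in the *Cib3* value was not tested.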

How the results depend on the processing

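The HFD minus chow directions of the 5 members held under every alternative that gave a value. The log2 fold changes moved by more than the spread between mice with limma on log2(TPM + 1), to 0.89 for *Tmem28*, -2.49 for *Slc34a2*, 1.51 for *Sema5b*, -1.34 for *Tuba8* and -1.12 for *Cib3*, a scale that compresses low levels. With limma on log2(TPM + 0.1) this held for *Tmem28* (2.89) and *Cib3* (-2.32), and with the clock score as covariate for *Slc34a2* (-2.57) and *Cib3* (-2.09). With each mouse left out in turn, values ran from 4.18 to 5.80 for *Tmem28*, the highest without Chow mouse 10, from -3.24 to -3.10 for *Slc34a2*, from 2.65 to 3.24 for *Sema5b*, from -3.03 to -2.75 for *Tuba8* and from -3.73 to -1.83 for *Cib3*, the last without Chow mouse 2. A minimum of 10 counts in every sample gave no value for *Tmem28*, *Tuba8* and *Cib3*, and DESeq2 gave *Cib3* no adjusted p. No member was called between HFD groups under any alternative.

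The 5 relatives called became 2 with all genes of at least 1 count, 3 with either limma fit and 0 with the clock score as covariate, where 230 genes were called in all. They ranged from 1 to 6 with each mouse left out, with 1 without Chow mouse 1, 2 without Chow mouse 2 or 7, Fishmeal mouse 14 or Beef mouse 39, and 3 without Chow mouse 10, Fishmeal mouse 20 or Salmon mouse 25 or 27. *Itga5* turned to 0.000367 with the clock covariate. The 2 neighbours called became 0 with all genes of at least 1 count or the clock covariate and 1 with the fit on all 4 groups or limma on log2(TPM + 0.1), and ranged from 0 to 3 with a mouse left out. The cause was not tested. Against the clock score 3 members passed by Pearson's r in all 15 fits without a mouse, and by Spearman's rho in all but those of *Cib3* without Fishmeal mouse 14 (-0.61) or 20 (-0.60) or Salmon mouse 25 (-0.56), while 0 to 1 pairs passed by r, the 1 being *Tuba8* and *Cib3* without Beef mouse 39 (r = 0.65, adjusted permutation p = 0.0471). Depth limits *Tmem28* in Chow and *Cib3* in HFD, where single mice had 0 to 13 and 1 to 23 counts.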
